A study of Rattus norvegicus with 44 samples.

Results

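The comparison described here set older vehicle-treated rats (AV, n = 12) against young rats (YNG, n = 10), 22 of the 44 rats of the study, in RNA from the dentate gyrus (DG) of the hippocampus. The members were chosen by the Group column of the deposited table of sample attributes, which reads Old Vehicle for AV and Young - Vehicle for YNG, because the sample labels of the older rats give only the age. All rats were male F344, an inbred strain widely used in aging research. The labels give 12 months for the older rats, which the study's methods state as the age when dosing began, so AV rats were older than this when tissue was taken, and 6 months for YNG. AV rats received the carrier of the senolytic drugs (Phosal 50 PG, PEG400 and ethanol) by oral gavage in cycles of 5 days, and the name of the young group gives vehicle too, though how and when it was given to them is not given in the sources used here. Each library came from the DG of 1 rat, so n counts rats. The question was how the DG transcriptome differs between young and older rats when no senolytic drug is given.

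The DG is built around granule cells, the excitatory neurons that relay input from the entorhinal cortex to CA3, and it is one of the few places in the adult brain where new neurons are added. Around these neurons lie astrocytes, myelinating oligodendrocytes, microglia, which are the resident macrophages of brain, and a dense capillary bed lined by endothelial cells that form the blood-brain barrier. Aging of the rodent hippocampus is known for a decline of neurogenesis, for activation of glia with induction of complement and antigen presentation genes, and for entry of some lymphocytes. Tissue was measured in bulk, so fewer cells of a type and less RNA per cell cannot be told apart in any value below.

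Values are the deposited normalized values, summed per gene, and differences are on the scale of log2(value + 1), where 1 stands for a doubling of high values and less than the true change of low ones. Genes with a mean of at least 5 were tested (15598 of 18347), two-sided, with limma. An unadjusted p below 0.05, the threshold of the study, is called passing the test, and a Benjamini-Hochberg adjusted p over all genes tested is given beside it. The total of the values per rat was 15291720 to 20579982 in YNG and 14548032 to 18998183 in AV, and the depth estimated from the smallest step of each library was 10166556 to 24328425 and 12122151 to 22311222 reads. The rat numbers fall into 2 ranges, number series a (6 YNG and 6 AV) and number series b (4 YNG and 6 AV), which do not overlap in the share of a single gene model, AABR07000398.1 (0.422% to 1.58% of the values in a and 4.14% to 11.1% in b). The labels name no batch, so library handling and animals cannot be told apart in a difference between the series, and values within each series are given beside many of the pooled ones. Small structural RNA genes (126 genes) took 0.0101% to 0.0817% of the values in YNG of series a and 0.0034% to 0.0057% in AV of series a, without overlap, against 0.0032% to 0.0095% and 0.0041% to 0.0152% in series b.

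Within AV, 4 rats stood apart from the other 8: 3989, 3999 and 4009 of series a and 4568 of series b. Their summed value over T and NK cell markers was 1467, 1063, 2168 and 2167, where the other 8 AV rats had 509.3 to 932.2 and YNG 501.2 to 924.7. Over endothelial markers the same rats had 29479, 15527, 17236 and 16071, where the other 8 AV rats had 7197 to 10317 and YNG 4453 to 11499. Prf1, which encodes the pore-forming protein of cytotoxic lymphocytes, was at 228.3, 198.9, 460.7 and 267.0 in them and at 1.07 to 13.9 in the other AV rats. Because these rats were noticed from their values, results are also given without them, with no test between them and the rest. The part of lymphocytes, vessels or dissection in what sets these rats apart was not tested.

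Of the genes tested, 1651 rose in AV (10.6%) and 1675 fell (10.7%) at the unadjusted threshold, and 283 (1.81%) rose and 84 (0.539%) fell after adjustment. The balance of directions depended on the scaling: with values set to a common upper quartile 2011 genes rose and 1284 fell, and with a common total 2820 rose and 656 fell, while the median difference of all genes moved from -0.00 to 0.10. Within series a, 2365 genes (15.2%) rose and 2847 (18.3%) fell, and within series b 588 (3.77%) and 396 (2.54%). In both series with the same direction, 136 genes rose (0.872%) and 44 fell (0.282%), while 47 genes rose in a and fell in b and 78 fell in a and rose in b. Without the 4 rats, 828 genes (5.31%) rose and 625 (4.01%) fell, and 37 genes (0.237%) in place of 367 (2.35%) had an adjusted p below 0.05. Of those 367 genes, all kept their direction without the 4 rats and 352 still passed the unadjusted threshold. In series b alone 348 kept it and 145 passed. Leaving out 1 rat at a time gave 180 (V4) to 1592 (4567) genes after adjustment, with 206 without V1, 210 without V2, 214 without 3989, 206 without 4009, 238 without 4568, 1005 without V11 and 1200 without 4572. Rats 4567 and 4572, the AV rats highest in small structural RNA (0.0152% and 0.0127%), gave 3296 genes after adjustment when both were left out, and with the share of that RNA as a covariate the number was 133. In both of these fits the 367 genes kept their direction and passed the unadjusted threshold. The 367 were called from these same rats at a stricter threshold, so their passes in all these refits were largely set in advance. The counts are a description and no separate support.

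Of the genes that rose after adjustment, at a mean of at least 20, the largest differences were in AABR07001734.1, a gene model of no known role, and Cdh1, the gene of E-cadherin, the adhesion molecule of epithelia. Both had YNG medians below 5, so they reached that mean only through AV rats, and the cut favored their rises. Their rank is a description. AABR07001734.1 was at 0, 3.38 and 8.29 (lowest, median and highest rat) in YNG and at 25.6, 45.2 and 79.6 in AV. The groups did not overlap, and the lowest AV rat stood 1.52 log2 units above the highest YNG rat. The difference was 3.65 ± 0.30 (SE; adjusted p = 1.22e-11), with 3.60 in series a, 3.70 in series b and 3.68 without the 4 rats.

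Cdh1 was at 0, 3.21 and 21.4 in YNG and at 20.4, 34.01 and 84.9 in AV, and 11 of 12 AV rats lay above the highest YNG rat. Its difference was 3.25 ± 0.37 (adjusted p = 1.66e-07), with 3.46 and 2.91 in the series and 3.24 without the 4 rats. Cyp2a1, a member of the cytochrome P450 family of oxidizing enzymes, was at 1.504, 4.23 and 9.79 in YNG and at 9.60, 19.4 and 37.4 in AV. The lowest of the 12 AV rats lay inside the YNG range and the other 11 above it. With a YNG median below 5, Cyp2a1 was tested only because of older rats, and the filter favored a rise. The difference was 2.10 ± 0.25 (adjusted p = 4.42e-07), and it was 1.62 in series a and 2.67 in series b.

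C4b and C3 encode components of complement, the cascade that tags cells and synapses for removal, and Fcgr2b encodes an inhibitory receptor for antibody. C4b was at 14.9, 29.6 and 53.2 in YNG and at 75.2, 95.5 and 309.4 in AV, without overlap. The 4 rats had the highest C4b of AV (146.4 to 309.4, where the others had 75.2 to 106.2), so its difference was 1.99 ± 0.23 (adjusted p = 1.66e-07) with them and 1.498 (adjusted p = 3.43e-06) without them. It was 2.65 in series a and 1.17 in series b (adjusted p of the difference 0.0373). C4b shares sequence with its neighbor C4a, so the split of reads between these genes is uncertain. Fcgr2b moved from a median of 67.6 (40.0 to 96.1) to 140.2 (94.8 to 328.1), a difference of 1.13 ± 0.16 (adjusted p = 1.18e-05) that was nearly the same in series a (1.15) and series b (1.17). C3 moved from 418.7 (338.5 to 675.3) to 911.0 (587.4 to 3710), by 1.12 ± 0.18 (adjusted p = 0.000274), by 1.36 in series a, 0.86 in series b and 0.95 without the 4 rats.

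Groups that did not overlap at all were rare: 6 of the 13719 genes with a mean of at least 20 (0.0437%), of which 5 were higher in AV. Beside AABR07001734.1 and C4b these were Pcdhb5, Col18a1 and Polr2a, and the gene lower in AV was Wnt16. Pcdhb5, a clustered protocadherin with near-identical neighbors, was at 206.6, 239.9 and 310.5 in YNG and at 312.4, 364.3 and 478.5 in AV, a difference of 0.55 ± 0.08 (adjusted p = 5.72e-05; 0.51 in series a and 0.58 in series b). Col18a1 encodes a collagen of vascular basement membranes, and it was at 274.8, 340.5 and 388.0 in YNG and at 414.9, 625.1 and 924.3 in AV. Its difference of 0.91 ± 0.14 (adjusted p = 8.59e-05) was 0.82 in series a, 1.05 in series b and 0.87 without the 4 rats. Polr2a, the largest subunit of RNA polymerase II, had a small and narrow difference of 0.37 ± 0.08 (adjusted p = 0.00641), which was 0.53 in series a and 0.19 in series b, with medians of 1516 and 1861. Between the nearest rats of both groups the gap was at most 0.10 log2 units for Pcdhb5, Col18a1, Polr2a and Wnt16. AABR07001734.1 was among the 13719 genes only through its AV values, so the cut favored a rise there.

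**Figure D1:**
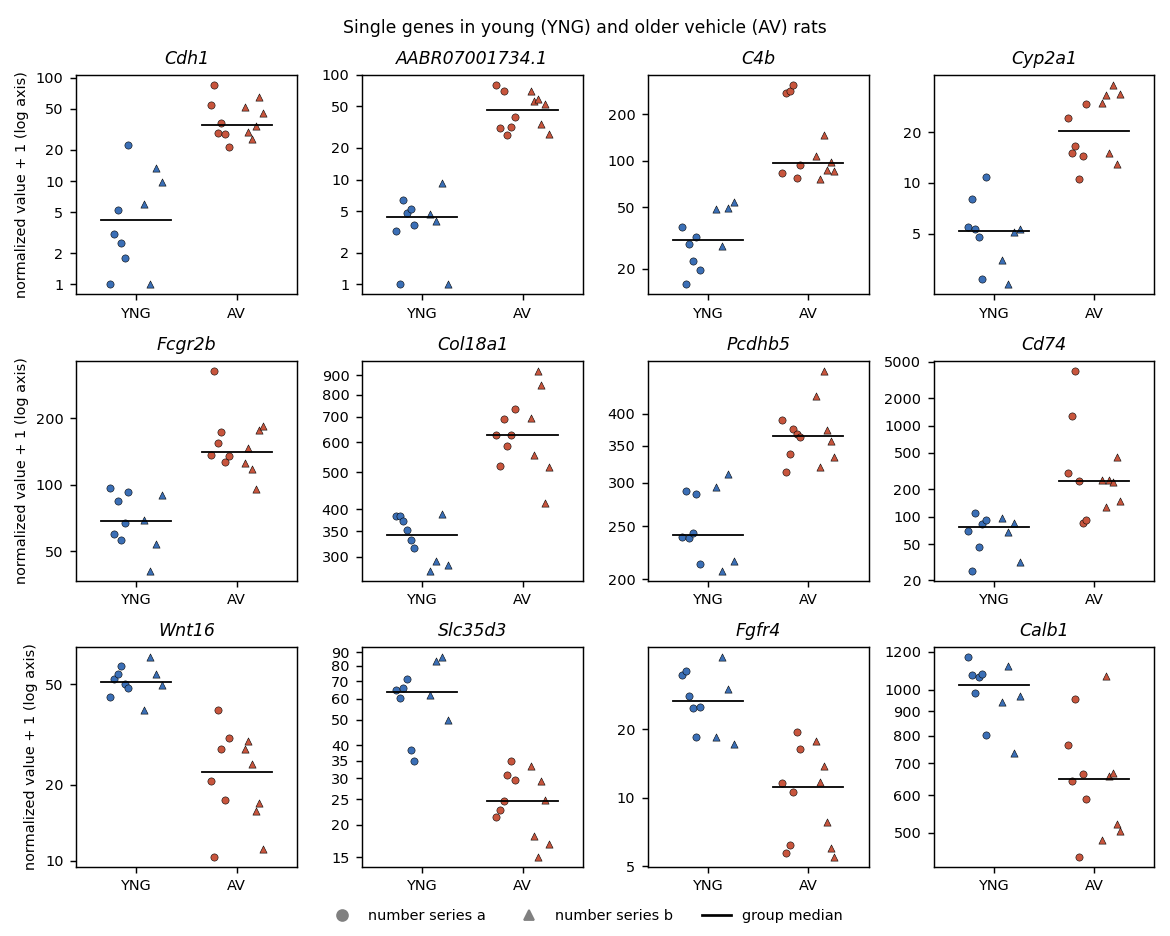
Normalized value plus 1 (log axis) of 12 genes in each of the 10 YNG and 12 AV rats, with circles for number series a, triangles for number series b and a line at the group median. AABR07001734.1, C4b, Pcdhb5, Col18a1 and Wnt16 had groups that did not overlap, while Cd74 reached 4005 in its highest AV rat against an AV median of 247.9.

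Slc35d3, Slc5a7, Wnt16 and Usp51 had the largest falls after adjustment at a mean of at least 20, and Fgfr4, of lower mean, was among the falls of smallest p. Slc5a7 and Usp51 reached that mean only through YNG rats, so the cut favored their falls and their rank is a description. Wnt16 encodes a secreted Wnt ligand, and it was at 38.7, 50.2 and 63.2 in YNG and at 9.43, 21.4 and 38.5 in AV, without overlap, so that it fell by 1.29 ± 0.23 on the log2 scale (adjusted p = 0.0007), with -1.198 in series a and -1.38 in series b. Fgfr4, a receptor for fibroblast growth factors, was at 16.3, 25.5 and 40.6 in YNG and at 4.54, 10.1 and 18.5 in AV, and it fell by 1.39 ± 0.24 (adjusted p = 0.00065). Fgfr4 had the same size of fall in series a (-1.36) and series b (-1.40). For this gene 10 of the 12 AV rats lay below the lowest YNG rat.

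Slc35d3, a member of the nucleotide sugar transporter family, fell by 1.29 (SE 0.21, adjusted p = 0.000257), with -1.005 in series a and -1.65 in series b, and 11 of 12 AV rats lay below the YNG range. Slc5a7, the choline transporter of cholinergic nerve endings, was at 13.8, 26.2 and 55.4 in YNG and at 1.89, 10.8 and 24.7 in AV. It fell by 1.29 ± 0.29 (adjusted p = 0.0102), by 0.85 in series a and by 1.85 in series b. Tspan18, a tetraspanin, went from a median of 367.1 (306.5 to 474.5) to 231.5 (141.9 to 311.7) and fell by 0.75 ± 0.15 (adjusted p = 0.00243), with -0.81 in series a and -0.65 in series b. All but 1 of the AV rats were below the lowest YNG rat. Further falls after adjustment were in Usp51 (-1.28), Pkib (-0.95), Mfap4 (-0.95), Calml4 (-0.88), Sema3c (-0.78), Zbtb20 (-0.75), Fbln2 (-0.52) and Tubb2b (-0.48), and each was negative in both series. Zbtb20 is a transcription factor of hippocampal neurons and Sema3c a guidance cue.

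Without the 4 rats, the adjusted p stayed below 0.05 for AABR07001734.1, Cdh1, Cyp2a1, C4b, Fcgr2b, C3, Pcdhb5, Col18a1, Wnt16 (-1.35), Slc35d3 (-1.24), Fgfr4 (-1.28), Tspan18 (-0.73), Fbln2 (-0.50), Tubb2b (-0.48), Itgb2 (0.51) and Fn1 (0.92). It rose above 0.05, with fewer rats in the fit, for Polr2a (0.27, adjusted p = 0.207), Slc5a7 (-1.16, 0.0836), Calml4 (-0.88, 0.0635), Usp51 (-1.30, 0.118), Pkib (-0.83, 0.171), Mfap4 (-0.82, 0.282), Sema3c (-0.66, 0.206) and Zbtb20 (-0.64, 0.309).

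Antigen presentation by MHC class II gave rises that were uneven among the AV rats. RT1-Ba and RT1-Bb encode the chains of one class II dimer of the rat, RT1-Da and RT1-Db1 those of another, and Cd74 the invariant chain that guides both to the endosome. These genes are known to be switched on together in microglia, macrophages and other antigen-presenting cells. RefSeq promoters (GRCr8, 250 bases before to 50 after the start, 300 bases each) are shown for the 4 class II chains because these genes moved together. They are given on the strand of the gene, and capitals mark ATTGG and CCAAT, which are the same pentamer on opposite strands and the core letters of the Y box of class II promoters. They lie at chr20:4576807-4577106 (+) for RT1-Ba, chr20:4604069-4604368 (-) for RT1-Bb, chr20:4515165-4515464 (+) for RT1-Da and chr20:4560113-4560412 (-) for RT1-Db1.
RT1-Ba: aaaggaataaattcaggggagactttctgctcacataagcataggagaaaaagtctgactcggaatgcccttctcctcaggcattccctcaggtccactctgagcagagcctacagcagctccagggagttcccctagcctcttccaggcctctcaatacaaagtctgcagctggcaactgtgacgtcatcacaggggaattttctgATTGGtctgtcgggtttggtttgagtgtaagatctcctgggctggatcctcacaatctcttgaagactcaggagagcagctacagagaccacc
RT1-Bb: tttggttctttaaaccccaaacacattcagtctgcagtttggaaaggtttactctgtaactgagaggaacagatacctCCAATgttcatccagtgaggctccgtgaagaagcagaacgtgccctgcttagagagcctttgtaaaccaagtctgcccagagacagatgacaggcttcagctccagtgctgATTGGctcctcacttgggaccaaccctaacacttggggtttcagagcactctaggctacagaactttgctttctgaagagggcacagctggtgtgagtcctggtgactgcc
RT1-Da: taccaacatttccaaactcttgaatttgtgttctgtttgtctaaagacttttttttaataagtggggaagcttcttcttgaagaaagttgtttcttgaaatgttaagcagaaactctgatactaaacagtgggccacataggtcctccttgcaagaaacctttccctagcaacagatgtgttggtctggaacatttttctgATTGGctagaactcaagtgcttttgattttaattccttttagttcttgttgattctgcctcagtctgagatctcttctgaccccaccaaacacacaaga
RT1-Db1: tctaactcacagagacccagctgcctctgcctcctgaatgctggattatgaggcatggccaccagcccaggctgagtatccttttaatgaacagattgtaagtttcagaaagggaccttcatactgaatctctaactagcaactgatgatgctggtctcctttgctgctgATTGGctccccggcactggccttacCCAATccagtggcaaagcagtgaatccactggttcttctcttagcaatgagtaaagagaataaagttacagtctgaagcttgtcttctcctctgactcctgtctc
All 4 windows held ATTGG on the strand of the gene, beginning 43, 61, 49 and 80 bases before the start in RT1-Ba, RT1-Bb, RT1-Da and RT1-Db1, and RT1-Bb and RT1-Db1 also held CCAAT. Of all 33469 promoters of the same length, 22.3% held ATTGG on the strand of the gene and 37.5% held either pentamer, so a match is a description and not a binding site.

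Cd74 was at 24.6, 75.5 and 108.0 in YNG and at 83.3, 247.9 and 4005 in AV, and 10 of 12 AV rats lay above the YNG range. RT1-Db1 was at 0, 2.36 and 13.4 in YNG and at 6.80, 26.04 and 488.6 in AV. The groups overlapped in both genes, and the highest values of both were in rats 3999 and 3989 (Cd74 at 4005 and 1273, RT1-Db1 at 488.6 and 199.0). RT1-Db1 had a YNG median below 5 and was tested only because of older rats, so the filter favored its rise. The differences were 2.18 ± 0.45 for Cd74 (adjusted p = 0.00504), 2.98 ± 0.58 for RT1-Db1 (0.00233), 2.46 ± 0.53 for RT1-Bb (0.00692), 2.42 ± 0.48 for RT1-Da (0.00292) and 2.27 ± 0.52 for RT1-Ba (0.0109).

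The class II rises passed the test in series b as well, at 1.80 for Cd74, 2.65 for RT1-Db1, 1.95 for RT1-Bb, 1.72 for RT1-Da and 1.96 for RT1-Ba. Without the 4 rats all 5 still passed the unadjusted threshold, at 1.501, 2.17, 1.77, 1.72 and 1.63 in the same order, with adjusted p from 0.0558 to 0.201. Of the 22 RT1 genes tested, 8 rose (36.4%) and 2 fell (9.09%), beside 10.6% and 10.7% of all genes. The others of the 8 were RT1-A1 (0.53), RT1-CE7, RT1-CE4 and RT1-M3-1, class I genes with sizes of 0.21 to 0.53. Without the 4 rats 5 of the 22 rose and 1 fell, and the median difference of the 22 went from 0.31 to 0.07. RT1-DMa (0.05) and RT1-DMb (-0.10), whose products load peptide onto class II, and RT1-DOb (0.36) did not pass. RT1 genes are close copies of each other, so reads may have been divided between them.

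Genes of cytotoxic lymphocytes were higher mainly in the 4 rats that stood apart. Those rats were noticed partly from these same genes, so this pattern and the drops without them were largely set in advance. Of 31 genes listed for T and NK cells, 14 were tested, and 7 of these rose and 0 fell, with a median difference of 0.73. Of the 7, 5 (Prf1, Cd8a, Gzmk, Ccl5 and Nkg7) were below 5 in every YNG rat and so were tested only because of other groups, and neither the count nor the median is support for a rise of the list. Ccl5, a chemokine of activated lymphocytes, was at 0, 0.92 and 4.997 in YNG and at 1.02, 4.38 and 528.9 in AV, with 112.3, 144.8, 528.9 and 486.5 in the 4 rats and at most 11.9 in the others. Its difference of 2.91 ± 0.73 (adjusted p = 0.0216) became 0.92 without them. Prf1 went from 2.77 ± 0.73 (adjusted p = 0.0302) to 0.76 (p = 0.0927 in limma), Cd8a from 1.92 to 0.27 and Nkg7 from 2.06 to 0.06.

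Cd4, a coreceptor of helper T cells, and Cd6, a T cell surface receptor, were 0.65 and 0.59 with all rats and 0.63 and 0.49 without the 4, passing the test each time. Cd4 is also expressed by rat microglia and macrophages. With them left out, 3 of the 14 genes rose (Cd4, Cd6 and Ccl5) and the median difference was 0.24. Only 2 genes of the B and plasma cell list were high enough to be tested, and neither passed the test.

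The spread of the values among rats of a group was tested as well, on the absolute deviation from the group median. It was larger in AV for 604 genes (3.87%) and smaller for 155 (0.994%) at the unadjusted threshold, and after adjustment larger for 2 genes (0.0128%) and smaller for 0 (0.0%). No rat of YNG was above 2.16 in either gene, so they reached the mean of 5 only through older rats, and the filter itself favored a larger spread in AV. These calls are a description. They were Tbx21, the transcription factor of cytotoxic and type 1 lymphocytes, and Gzmbl2, a granzyme. Tbx21 was at 0, 0 and 2.16 in YNG and at 0, 1.65 and 202.8 in AV, where the 4 rats had 12.4 to 202.8 and the others at most 5.0. Gzmbl2 reached 1.25 in YNG and 106.2 in AV, again in the 4 rats (11.4 to 106.2 against at most 4.0). With robust estimation, or with AV and YNG fitted alone, neither call was made, at a mean of at least 20 neither gene was tested, and without 1 rat the number of calls was 1 to 4 (4 without 4011, and 1 without any of 3999, 4009, 4568, V1, V2, V4, V5, V9, V10, V11 or V12).

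**Figure D2:**
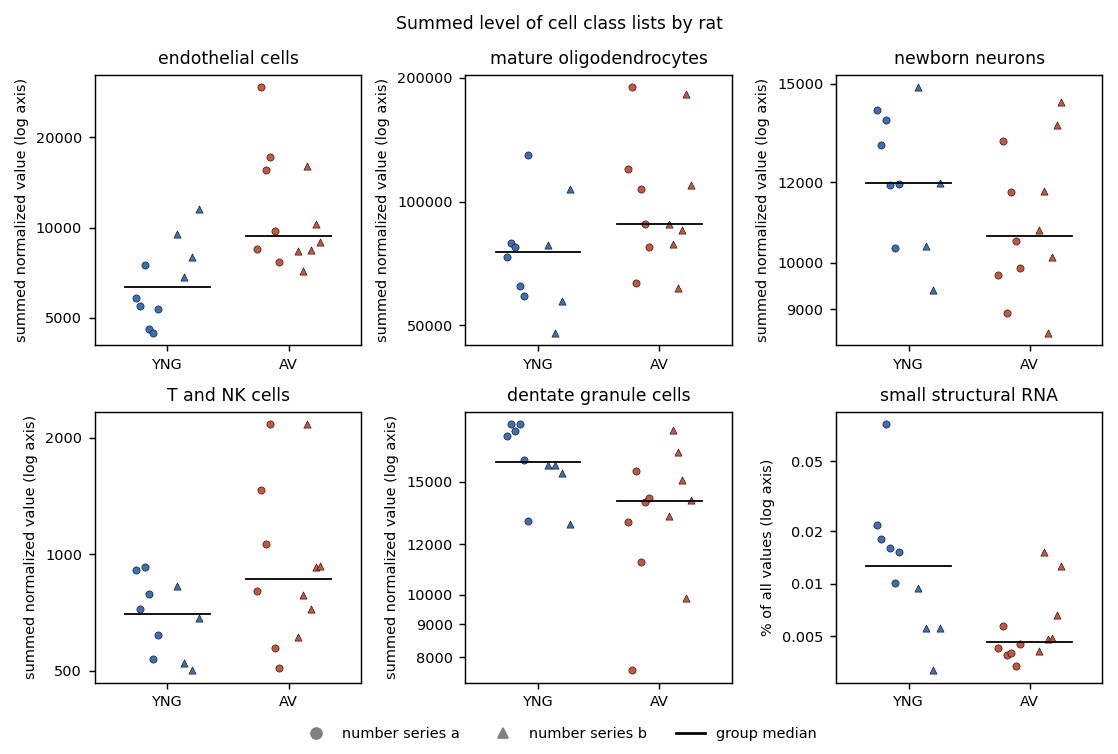
Summed normalized value of the tested members of 5 cell class lists in each rat, and the percent of values on small structural RNA genes, for the 10 YNG and 12 AV rats (circles for number series a, triangles for series b, line at the group median). For endothelial cells 4 AV rats lay above the highest YNG rat at 11499, while for mature oligodendrocytes, newborn neurons and granule cells the groups overlapped widely.

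Cell classes were described next, by lists of marker genes, with the counts read against the shares of all genes that rose (10.6%) or fell (10.7%). Myelin genes rose together, to a like degree in both series. Of 19 markers of mature oligodendrocytes tested, 14 (73.7%) rose and 0 fell, and the median difference was 0.41, with 0.44 in series a, 0.49 in series b and 0.44 without the 4 rats, where 14 rose again. Hapln2, which encodes a link protein of the node of Ranvier, was at 152.4, 264.2 and 685.0 in YNG and at 186.2, 663.1 and 1306 in AV. Its difference was 0.95 ± 0.25 (adjusted p = 0.0284), and 5 of 12 AV rats lay above the YNG range. Fa2h, the enzyme that hydroxylates myelin lipids, followed with 0.57 ± 0.16 (adjusted p = 0.0386). Among genes of myelin proteins, differences were 0.39 for Mag, 0.40 for Mog and 0.56 for Mobp, which rose, and 0.38 for Mbp, which did not pass (p = 0.0659 in limma). Summed values overlapped, at 47896 to 129753 in YNG and 61484 to 190175 in AV. The rats with the highest sums for this list also stood out in markers of neighboring tissue. AV rats 3989 and 4571 had CA1 pyramidal sums of 32336 and 23654 and the lowest granule cell sums of all 22 rats (7630 and 9899), where CA1 sums ran from 2490 to 19585 in YNG and from 2133 to 32336 in AV. In YNG the rats highest in the list, V6 and V12, were also the highest in CA1 (19585 and 16758). The part of dissection in the myelin values was not tested.

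Earlier stages of the same lineage moved less. Of 9 markers of committed oligodendrocytes 2 rose and 0 fell, and Enpp6, which marks newly forming oligodendrocytes, was the clearest. Enpp6 was at 54.9, 71.3 and 95.7 in YNG and at 70.6, 111.6 and 169.7 in AV, with 9 of 12 AV rats above the YNG range. The difference was 0.58 ± 0.13 (adjusted p = 0.0107), with 0.58 in series a, 0.56 in series b and 0.68 without the 4 rats. Of 8 markers of oligodendrocyte precursors, 0 rose and 2 fell, but the median difference was 0.11. Within series a 3 rose and 2 fell (median 0.23), and within series b 0 rose and 0 fell (median -0.05).

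Microglia changed in part of their markers. Of 20 homeostatic markers 10 rose and 0 fell, with a median of 0.28 (0.26 in series a, 0.29 in series b). Sall1, the transcription factor of microglial identity, rose by 0.61 ± 0.12 (adjusted p = 0.00327), Slc2a5, the fructose transporter, by 0.60 ± 0.17 (0.0375) and Tyrobp, a signaling adaptor, by 0.62 ± 0.17 (0.0330). Csf1r (0.04), Aif1 (-0.03), Cx3cr1 (0.13) and Tmem119 (0.15) did not pass the test. With the 4 rats left out, 6 of the 20 rose and the median was 0.19.

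Of 25 markers of activated microglia, 9 rose and 2 fell, and the median was 0.35. Gpnmb, a transmembrane protein of lipid-laden phagocytes, was at 90.3, 139.6 and 206.1 in YNG and at 124.5, 251.2 and 522.6 in AV. Its difference of 0.80 ± 0.17 (adjusted p = 0.00620) was 0.78 in series a and 0.85 in series b, and 0.58 without the 4 rats. Cd74 is on this list too, as an antigen presentation gene. For the whole list without the 4 rats, 6 rose, 1 fell and the median was 0.10. Its summed value was lower in AV by the median (56078, 37779 to 99262) than in YNG (65795, 42263 to 88358), with wide overlap.

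Of 18 general astrocyte markers tested, 4 rose, 1 fell and the median was 0.09, and without the 4 rats 0 rose, 0 fell and the median was 0.04. Gfap, the intermediate filament that marks astrocyte reactivity, rose by 0.43 (p = 0.00476 in limma, adjusted p = 0.0928), by 0.32 in series a, where it did not pass, and by 0.61 in series b. Its difference without the 4 rats was 0.26 (p = 0.0710). Of 21 reactive markers, 11 rose and 1 fell, with a median of 0.43 (0.77 in series a and 0.32 in series b). Serping1, the inhibitor of complement C1, moved from a median of 55.2 (34.4 to 102.3) to 139.2 (53.5 to 740.5), by 1.39 ± 0.29 (adjusted p = 0.00535). Osmr, the oncostatin M receptor, rose by 1.604 ± 0.30 (0.00199) and Aspg by 0.95 ± 0.20 (0.00497). Ptx3, a secreted pattern recognition protein, was the member that fell, by 1.17, at medians of 6.47 and 3.13.

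Reactive markers without the 4 rats counted 7 rises and 1 fall, with a median of 0.12. Serping1 was then at 0.83, Osmr at 1.13 and Aspg at 0.69, each past the unadjusted threshold. C3 and Serping1 are also complement genes.

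The endothelial list rose nearly as a whole, and its rise differed between the series. Of 24 markers tested 22 (91.7%) rose and 0 fell, 13 of them after adjustment, with a median of 0.73. Within series a 21 rose and the median was 1.25, but within series b 1 rose, 1 fell and the median was 0.03. The interaction of age and number series passed an adjusted p of 0.05 for 14 of the 24, all with the larger rise in series a. Leaving out the 4 rats, 13 of 24 rose and the median was 0.38.

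Flt1, a receptor for VEGF, rose by 1.06 ± 0.22 over all rats (adjusted p = 0.00504), by 1.86 in series a, and was at -0.03 in series b. Ptprb, the phosphatase of the endothelial receptor Tie2, was at 1.997 in series a and fell by 0.44 in series b. Cdh5, the cadherin of endothelial junctions, was at 1.59 and -0.01. Vwf, the clotting factor carrier, was at 2.20 in series a and 0.29 in series b, and its AV values ran from 596.5 to 902.7 in 8 rats and from 2789 to 7244 in the 4 that stood apart.

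Part of the gap lay in the young rats. The median of Ptprb over YNG was 102.3 in series a and 373.9 in series b, and that of Rgs5, a pericyte gene, was 72.9 and 184.9. In AV the medians of Ptprb were 474.1 and 273.1, and those of Rgs5 180.2 and 136.5. Pericytes (3 of 10 rose, median 0.22) and vascular smooth muscle (2 of 8 rose, median 0.30) had the same kind of split, with medians of 0.54 and 0.74 in series a and -0.19 and -0.02 in series b. Leaving out the 4 rats, 1 pericyte marker rose and the median was -0.03, and 2 smooth muscle markers rose and the median was 0.21. The choice of tissue, the handling of libraries and the animals cannot be told apart in this split.

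**Figure D3:**
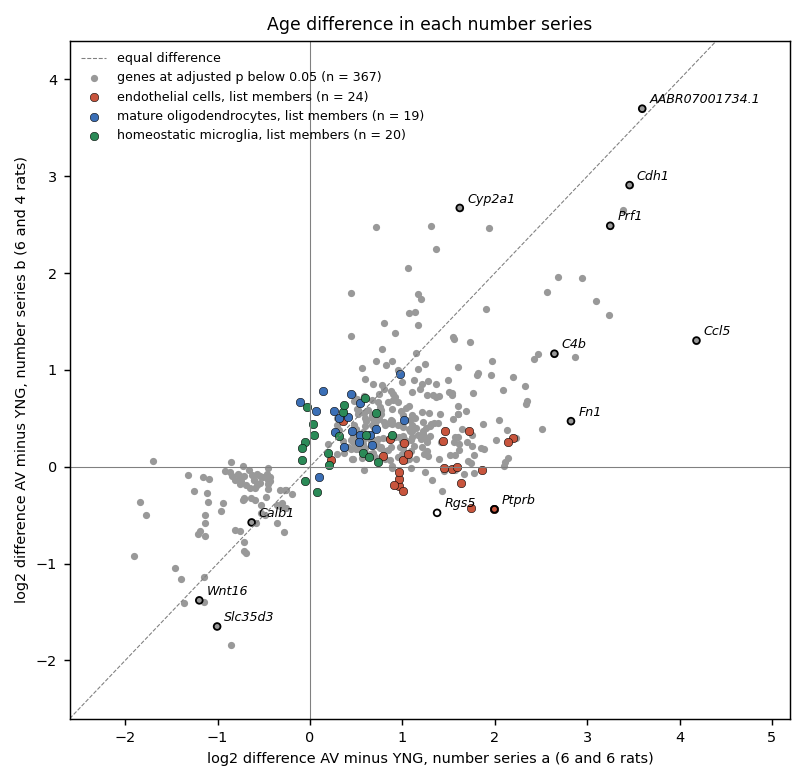
Difference AV minus YNG (log2) within number series a (horizontal axis) and within number series b (vertical axis) for the 367 genes with an adjusted p below 0.05 over all rats (grey) and for tested markers of endothelial cells (24, red), mature oligodendrocytes (19, blue) and homeostatic microglia (20, green), with a dashed line of equal difference. Endothelial markers have a median of 1.25 in series a and 0.03 in series b, while mature oligodendrocyte markers have 0.44 and 0.49.

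Angpt2, a ligand that loosens endothelial junctions and is not on that list, was at 4.51, 11.9 and 20.2 in YNG and at 7.15, 30.1 and 1634 in AV. The 4 rats had 307.1 to 1634 and the others 7.1 to 33.9, and the difference of 2.40 ± 0.56 (adjusted p = 0.0124) was 0.83 without them. Fn1, which encodes fibronectin, moved from 510.9 (326.3 to 1157) to 1287 (697.6 to 12585), by 1.77 ± 0.32 (adjusted p = 0.00091). Fn1 was at 2.82 in series a and at 0.47 in series b, where it did not pass, and at 0.92 without the 4 rats (adjusted p = 0.00984).

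Of 10 markers of newborn neurons tested 4 fell and 0 rose, with a median of -0.35 (-0.31 in series a and -0.30 in series b). Dcx, the microtubule protein of migrating young neurons, was at 124.2, 188.6 and 239.3 in YNG and at 106.5, 128.1 and 201.1 in AV. It fell by 0.46 ± 0.11 (adjusted p = 0.0135), and 6 of 12 AV rats lay below the YNG range. Igfbpl1, a marker of neuronal progenitors, was at 11.1, 15.9 and 23.1 in YNG and at 1.13, 6.69 and 14.9 in AV, and it fell by 1.30 ± 0.28 (adjusted p = 0.00724).

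Sox11 (-0.50) and Dpysl3 (-0.36) were the other markers that fell. Stmn1 (-0.07), Neurod1 (-0.34), Tubb3 (-0.19) and Cd24 (0.10) did not pass. Without the 4 rats 3 of the 10 fell, the median was -0.16, and Dcx was at -0.43 (p = 0.000937 in limma, adjusted p = 0.157). Summed values overlapped, at 9393 to 14902 in YNG and 8525 to 14396 in AV. Of 12 genes of dividing cells, 3 rose and 0 fell (median 0.21), and without the 4 rats 0 rose and 0 fell, with Mki67 at 0.41 and then 0.16.

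Of 10 granule cell markers tested, 0 rose and 2 fell, with a median of -0.14. Calb1, the calcium buffer of mature granule cells, was at 734.6, 1022 and 1171 in YNG and at 444.7, 649.5 and 1068 in AV, with 9 of 12 AV rats below the YNG range. It fell by 0.62 ± 0.15 (adjusted p = 0.0133), by 0.63 in series a and 0.57 in series b, and was at -0.63 without the 4 rats. C1ql3, a secreted synapse organizer, fell by 0.67 ± 0.18 (adjusted p = 0.0284), by 1.15 in series a, and was at -0.11 in series b (adjusted p of the difference 0.0368). Prox1 (-0.12), the factor that sets granule cell fate, did not pass the test.

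Few markers of the other neuron classes passed the test. Of 11 shared interneuron markers 2 rose, of 14 subclass markers 0 rose and 0 fell, and of the 6 CA1 and 5 CA3 pyramidal markers none passed the test. In CA2 markers 2 of 5 fell, and in mossy cell markers 1 of 5 rose, and without the 4 rats these counts were 1 and 0. For border macrophages 0 of 8 passed. Choroid plexus markers had a median of 0.45, but 1 rose and 1 fell of 9, and the member that fell was Calml4. Red blood cell markers had a median of 0.65 with 1 of 6 past the test, and their sums in AV ranged from 3785 to 95413.

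**Figure D4:**
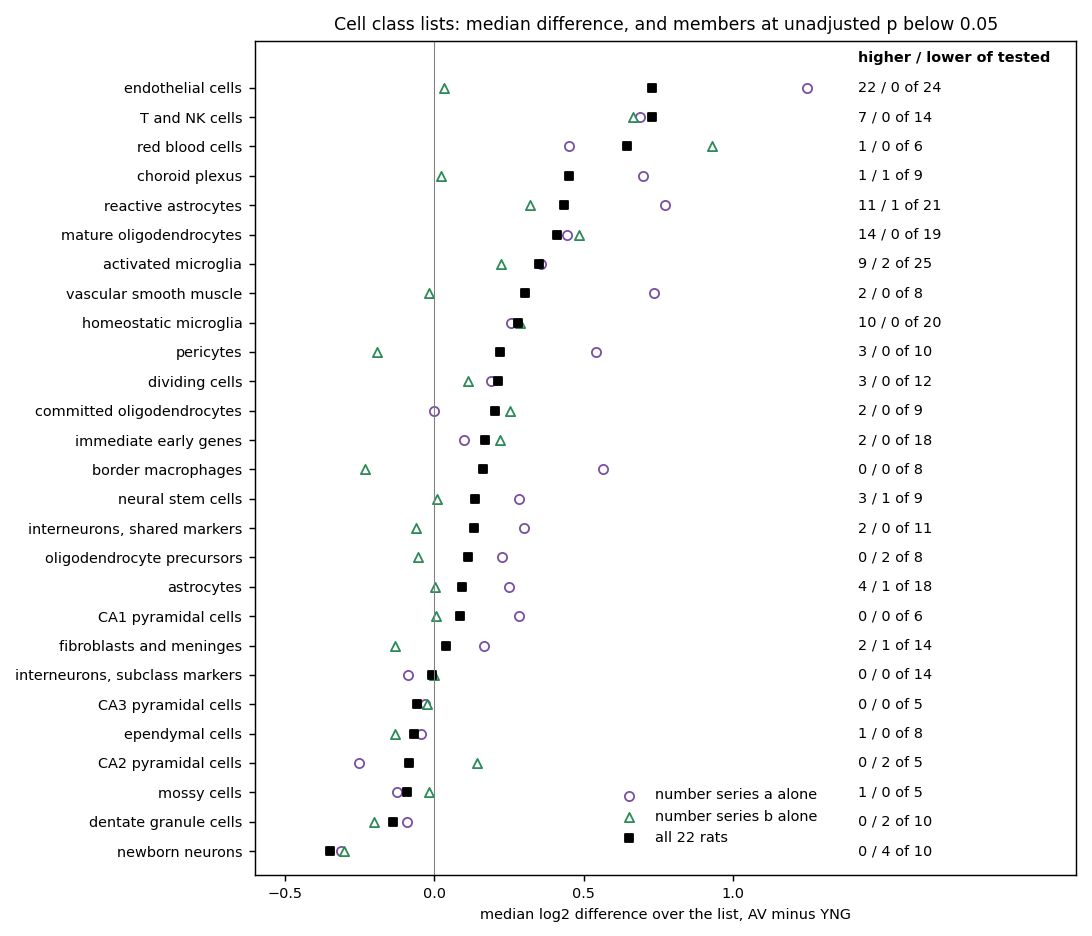
Median log2 difference AV minus YNG of the tested markers of 27 cell classes with at least 5 tested, over all 22 rats (squares), number series a (circles) and number series b (triangles), with the counts of markers higher and lower at an unadjusted p below 0.05. Endothelial cells lie at 0.73 over all rats with 22 of 24 higher, but lie at 0.03 in series b, and newborn neurons lie lowest at -0.35.

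Families defined by the start of the symbol added a few groups, of which only some of the 37 are given here. Their shares stand beside the 10.6% of all genes that rose and the 10.7% that fell. Of 23 cadherins 7 rose (30.4%) and 1 fell (4.35%), and the 7 include Cdh1 and Cdh5. Of 18 members of the TNF and TNF receptor superfamilies 7 rose (38.9%) and 0 fell. Tubulins went the other way, with 7 of 19 lower (36.8%) and 2 higher (10.5%). Tubb2b, a neuronal tubulin of developing and adult brain, was at 3050, 3734 and 4491 in YNG and at 2195, 2632 and 3632 in AV, and it fell by 0.48 ± 0.09 (adjusted p = 0.00131), by 0.59 in series a and 0.35 in series b. Under the common-total scaling 1 tubulin fell and 3 rose, so that the count, but not the fall of Tubb2b, depended on the scaling. It depended on the rats as well. Of the 19 tubulins, 9 fell in series a, 1 in series b and 1 without the 4 rats, beside 18.3%, 2.54% and 4.01% of all genes. With small structural RNA as a covariate 1 tubulin fell. Histones fell in series a (9 of 17), where 18.3% of all genes fell, and 0 of 17 passed in series b. Of the 312 zinc finger proteins, 18 rose (5.77%) and 29 fell (9.29%), shares below those of all genes. Gene models without a name made up 1964 of the genes tested, with 125 higher (6.36%) and 254 lower (12.9%).

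The age difference itself differed between the number series for 697 genes (4.47%) by the adjusted p of the interaction, with 201 (1.29%) higher and 496 (3.18%) lower in a than in b. Without 1 rat the number ran from 98 (V11) to 1525 (V9), and it also moved by over 1.5 times without V1 (309), V2 (349), V3 (339), V4 (393), V5 (1224), V6 (1091), V10 (310), 3989 (1292), 4567 (308), 4568 (1058) or 4572 (278). Among the 151 genes named by the rule, 43 passed the unadjusted threshold in both series with the same direction. They include AABR07001734.1, Cdh1, Cyp2a1, C4b, Fcgr2b, Col18a1, Pcdhb5, Wnt16, Fgfr4, Slc35d3, Calb1, Igfbpl1, Enpp6, Hapln2, Fa2h and Gpnmb, whose values over all rats stand above. Of all genes tested, 0.872% rose in both series and 0.282% fell in both. The named genes were mostly chosen by p or size in the fit of these same rats, so the 43 are a description and no separate support.

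Older rats given senolytics shared the YNG controls with AV, so their values are only set beside those of AV, with no comparison. In rats given ABT-263 (AA, n = 11) and dasatinib plus quercetin (ADQ, n = 11), the median of AABR07001734.1 was 36.4 and 54.7, that of Cdh1 22.8 and 28.9, and that of Cyp2a1 16.5 and 17.9. C4b was at a median of 69.4 in AA and 64.2 in ADQ, Cd74 at 159.8 and 128.3, and Gpnmb at 127.9 and 155.0. Of the genes that fell, Wnt16 had medians of 31.1 and 31.5, Slc35d3 of 24.1 and 23.8, and Calb1 of 718.8 and 738.2.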

How the data were processed

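RNA-seq of the DG was analysed for 12 AV and 10 YNG rats, all 44 rats of the study entering 1 fit. The authors aligned reads to rn6 with STAR 2.5.3a in Partek and deposited signal values, estimated reads divided by a median-ratio size factor per library (DESeq2 was the authors' test; the annotation is not given in the sources used here). Of the low values (up to 20 steps of a library), 79.5% to 84.1% per library were whole multiples of the step within 0.05 reads, so whole reads were not recovered and no count model was used.

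The 24694 rows were summed to 18347 genes, and those with a mean of at least 5 were tested as log2(value + 1) by limma 3.58.1 (moderated by empirical Bayes, trended) in R 4.3.3 with data.table (version 1.17.8), without covariates. Further fits tested the spread and the age-by-series interaction. All p-values of genes come from limma, adjusted ones by Benjamini-Hochberg over all genes tested, and they rest on separate rats. Scripts were tested on simulated data. Tables and figures used Python 3.11.15, numpy 2.4.6, pandas 2.3.3 and matplotlib 3.10.9.

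The comparison, the marker lists (31 cell classes), the symbol families (37) and the rule for named genes were chosen with earlier results of these data known. The rule took the 12 rises and 12 falls of largest difference among genes called after adjustment whose mean was 20 or more, the 6 of smallest p and the 4 of largest level difference in each direction, the 6 genes with the widest gap between groups, 3 members per cell class with a member past the test, 2 per family with an adjusted call, and 3 each for spread and series difference. Members of the lists named outside it, such as Mag, Csf1r and the class I RT1 genes, were chosen after their values were seen. Lists were described by counts and medians, with no test. Promoters came from RefSeq (GRCr8), matched by symbol for 10908 of 15514 tested symbols (70.3%), since no genome of the rn6 build was used here.

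Alternatives were pseudocounts of 0.5 and 5, no filter, a mean of at least 20, other scalings, AV and YNG alone, the number series as a covariate or alone, robust estimation, array weights and leaving out each rat. The fits without 4567 and 4572, without 3989, 3999, 4009 and 4568, and with small structural RNA as a covariate were added after seeing the data. Depth limits precision for low genes, and no interval was computed, because the values are not counts.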

Additional observations from a re-analysis of the deposited data

Results flagged for a closer look

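In YNG, each gene named was checked for a rat far from the others, by Dixon's ratio at its 95% critical value for 10 rats. This marked 14 of 151 values. The critical value rests on normally distributed values, while these were taken without logs, and genes marked in the same rat are not separate. No share expected by chance is therefore given. AV, with more than 10 rats, was not checked in this way. Rat V12 was highest for Vwf (1325, next rat 810.8), Lgals3 (16.3), Esam (259.6), Des (106.5) and Slc4a1 (43.5), genes of vessels, blood and phagocytes. Rat V11 was highest for Col3a1 (62.1), Npas4 (59.4) and Cxcl12 (1222), rat V6 was highest for S100b (25494) and Cyp2u1 (154.8) and lowest for Rab33b (524.9), and rat V9 was highest for Fmod (86.2). The low genes Gzmbl2 (1.25, rat V9) and Tbx21 (2.16, rat V3) were marked at values of only a few reads at most.

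For 22 of the genes named, the difference AV minus YNG itself differed between number series a and b (limma interaction, adjusted p below 0.05). In vascular genes the difference was larger in a than in b, on the log2 scale by 2.44 for Ptprb, 1.91 for Vwf, 1.89 for Flt1, 1.85 for Rgs5, 1.68 for Cyyr1, 1.599 for Cdh5, 1.17 for Esam and 1.02 for Mylk. The same direction held for Fn1 (2.35), Tnfrsf11b (1.75), Zfp366 (1.69), Fmod (1.57), Cxcl12 (0.99) and Lamc1 (0.74), which include matrix genes, and for C4b (1.48), Erbb4 (1.46), Prom1 (1.43), Trim25 (1.31) and Itpr2 (1.03). It was lower in a than in b for AABR07072440.1 (-1.76), C1ql3 (-1.05) and Clec2l (-0.72). Series a holds 3 of the 4 AV rats that stood apart and the YNG rats highest in small structural RNA, and the part of these in the differences was not tested.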

How the results depend on the processing

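The number of genes past the unadjusted threshold (3326) was 5212 in number series a, 984 in series b, 7694 with array weights, 5639 without 4567 and 4572, 1453 without 3989, 3999, 4009 and 4568, and 1760 with small structural RNA as a covariate, and 2527 to 4510 without 1 rat. After adjustment the 367 became 730 with a common total, 67 with AV and YNG alone, 676 with the number series as a covariate, 2895 and 8 in series a and b, 6324 with array weights, 3296 without 4567 and 4572, 37 without the 4 rats, 133 with the RNA covariate, and 180 to 1592 without 1 rat. The 2 genes of larger spread were 1 at a pseudocount of 0.5, 5 in series a, 0 in series b, 0 at a mean of at least 20 (neither gene was tested there), 0 with AV and YNG alone, 0 with robust estimation, and 1 to 4 without 1 rat. The 697 series differences were 144 with AV and YNG alone, 3336 with array weights and 98 to 1525 without 1 rat. The cause of these changes was not tested, beyond the fewer rats of the smaller fits.

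In series b alone, 16 of the 151 named genes changed sign: AABR07072440.1 (0.0637), Gad2 (-0.0621), Prom1 (-0.43), Itpr2 (-0.18), Flt1 (-0.0336), Rgs5 (-0.48), Abcc9 (-0.0445), Ndufa4l2 (-0.15), Mylk (-0.0212), Des (-0.0137), Fmod (-0.28), Cdh5 (-0.006), Clec2l (0.0469), Dnah5 (-0.17), Ptprb (-0.44) and Cyyr1 (-0.25). There 67 others no longer passed the threshold they had passed. Without the 4 rats 34 no longer passed and 0 changed sign. Under the other settings 0 to 15 of the named genes no longer passed, and none changed sign. The named genes were mostly chosen from the fit of these same rats, so these counts are a description. No paired analysis was possible because the labels give the groups no shared replicate numbers. Depth limits genes of only a few reads in most rats, such as Gzmbl2 and Tbx21.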

Other observations

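Of 18 immediate early genes, which neurons switch on after firing, 2 (11.1%) rose and 0 fell, where 10.6% of all genes rose, and the median was 0.17. Fosb rose by 0.30 (p = 0.00674 in limma, adjusted p = 0.106), with 0.22 in series a, 0.38 in series b and 0.37 without the 4 rats that stood apart. Npas4, which is induced by synaptic calcium, was at 24.9 to 59.4 in YNG and 9.78 to 100.2 in AV, a wider range in the older rats, and did not pass the test (0.49, p = 0.113 in limma). Of 9 neural stem cell markers 3 rose (Nes, Lpar1 and Prom1) and 1 fell (Hes5, -0.38), with Prom1 at 0.995 in series a and -0.43 in series b. In series b 0 of the 9 rose and 1 fell, and without the 4 rats 1 rose and 0 fell. Fibroblast and meningeal markers had a median of 0.04, with 2 of 14 higher and Col3a1, a fibrillar collagen, lower (-0.73, p = 0.0276 in limma).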
